A study of Mus musculus with 2 samples.

Results

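The 10 genes described here encode the machinery that loads and displays peptides on MHC class II: H2-Aa, H2-Ab1 and H2-Eb1, Cd74, H2-DMa, H2-DMb1 and H2-DMb2, H2-Oa and H2-Ob, and Ciita. They were taken by symbol from the deposited count matrices, where each matched 1 of 56941 gene rows. The rule for taking them used no measured value, but the genes were chosen with earlier results of these data known. The data were single-cell RNA counts of cells from liver metastases in C57BL/6 mice of 6 to 8 weeks, 2 weeks after intrasplenic injection of MC38-LM3b cells, a mouse colon cancer line selected for liver metastasis. One library came from tumours carrying a scrambled hairpin (shScramble, called Ctrl) and the other from tumours carrying a hairpin against SLAMF3 (shSLAMF3, called KD). The comparison asks how silencing SLAMF3, an immune receptor found on these tumour cells, relates to the immune cells of the lesions.

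The hairpins were in the injected tumour cells and not in the host, so every immune or endothelial cell described below was genetically unaltered in both groups. The MC38-LM3b line is the progeny of cells passed repeatedly through mouse liver, and the lesions of 3 mice were pooled into each library after positive selection for CD45, the common leukocyte antigen. With 1 library per group there was no replicate, no test and no p-value, and mouse-to-mouse variation could not be separated from the hairpin. Intervals in brackets are 95% intervals that cover counting error only.

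MHC class II molecules are pairs of an alpha and a beta chain that show peptides from engulfed material to CD4+ T cells. New pairs bind the invariant chain, encoded by Cd74, which fills the groove and steers them to endosomes. There proteases trim the invariant chain to a short fragment, H2-M (H2-DMa with H2-DMb1 or H2-DMb2) exchanges the fragment for peptide, and H2-O (H2-Oa with H2-Ob) restrains H2-M. The coactivator CIITA, the product of Ciita, turns on the class II chains, Cd74 and H2-M. It acts through proteins already seated at an X box and a Y box in the promoters, the Y box being an inverted CCAAT motif bound by NF-Y. Dendritic cells, B cells and many macrophages carry class II, interferon gamma raises it in other cells, and C57BL/6 mice lack a working H2-Ea, the partner of H2-Eb1.

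The stretches shown here carry letters that several of these genes have in common near their start sites. They come from RefSeq promoters of 300 bases on GRCm38.p6, which is an earlier build than the GRCm39 used for the counts, so they serve as sequence only. The 2 letter patterns were chosen after the sequences were seen: GATTGG, which holds CCAAT on the opposite strand, and GNAAC (N is any base), a core of the X box, starting 25 to 40 bases before it on the gene's strand. Entries on 1 chromosome, other than the one of the stretches below, were left out of the search for the 10 genes by choice. A gene of the 10 with entries only there would count as having no entry used, and the counts that follow do not cover it. Of the 10, 7 had a promoter entry that was used and all 7 held GATTGG in at least 1 entry, while 5 of the 7 also held GNAAC at that spacing. Among all 32851 promoters of the same length, GATTGG was present on the gene strand in 8.71% (16.1% on either strand) and the spaced pair in 0.457% (0.922% on either strand). Both patterns are printed in capitals in the lines that follow, each written 5′ to 3′ on the gene's strand.
H2-Aa (chr17:34287859-34287912, minus strand): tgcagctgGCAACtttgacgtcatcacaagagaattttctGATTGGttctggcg
H2-Eb1 (chr17:34305767-34305820, plus strand): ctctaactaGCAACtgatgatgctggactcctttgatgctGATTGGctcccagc
H2-DMb1 (chr17:34153089-34153142, plus strand): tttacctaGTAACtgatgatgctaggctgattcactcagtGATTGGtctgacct
H2-DMb2 (chr17:34145118-34145171, plus strand): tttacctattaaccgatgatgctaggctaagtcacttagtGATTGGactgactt
H2-Oa (chr17:34092295-34092348, plus strand): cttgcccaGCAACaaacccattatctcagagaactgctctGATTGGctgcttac
H2-Ob (chr17:34238807-34238860, plus strand): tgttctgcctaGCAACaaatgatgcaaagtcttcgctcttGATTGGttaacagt

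In H2-Aa, H2-DMb1 and H2-Oa the first bases of the patterns lay 32 bases apart, in H2-Eb1 31 and in H2-Ob 29. GATTGG began 44 to 62 bases before the start site in these 5 genes and 91 bases before it in H2-DMb2. The H2-DMb2 stretch resembles that of its neighbour H2-DMb1 but holds no GNAAC at that spacing. H2-DMa had 2 promoter entries, of which 1 held GATTGG (199 bases before the start) and neither the pair. A match describes letters and is not evidence of binding, and H2-Ab1, Cd74 and Ciita had no entry used here.

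After the study's own limits on cell quality, 9814 Ctrl cells and 10185 KD cells remained, with medians of 5411 and 4989 UMIs (unique transcript counts) per cell, and 25 barcodes among them occurred in both libraries. Clusters were built without the class II genes and named from marker genes. Dendritic-like cells numbered 473 in Ctrl and 649 in KD, B-like cells 276 and 887, macrophage-like cells (monocytes included) 3207 and 2750, Kupffer-like cells 47 and 83, and endothelial-like cells 150 and 646, and these names are shortened below. Defining markers were present in each class, with 9 of 9 B cell, 10 of 10 macrophage, 8 of 8 Kupffer and 10 of 10 endothelial markers detected in both libraries. This is no check of the names, which rest on the same markers. Detection in a class sum also cannot tell classes apart, since macrophages too had 9 of 9 B cell markers detected. Endothelial cells lack CD45, so their number depends on the selection. Cells bearing markers of 2 lineages numbered 927 in Ctrl and 1146 in KD. The 11 granulocyte markers were higher in KD in all 5 classes, from 66.8 to 665 CPM in dendritic cells, 92.5 to 389.5 in B cells and 392 to 2538 in macrophages, and their part in the ratios below was not tested. The targeted gene, listed as Ly9, had 1349 UMIs in Ctrl and 1157 in KD over all kept cells (21.0 and 18.8 CPM, as defined below), and only 12 and 7 UMIs in the 161 and 96 tumour-like or fibroblast-like cells, so these libraries do not check the knockdown.

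Levels are given as CPM, the UMIs of a gene in every 1e6 UMIs summed over a class in 1 library. UMIs are not divided by transcript length, so levels are compared between classes and not between genes. T cells and granulocytes, which should lack most of these genes, serve as the background measured the same way. Free RNA gives some UMIs in every droplet.

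The classical chains were high in dendritic cells, macrophages and Ctrl Kupffer cells, intermediate in B cells and low in endothelial cells. For H2-Aa (ENSMUSG00000036594), the alpha chain of I-A, the levels were 5339 CPM in Ctrl and 6442 in KD in dendritic cells, 4812 and 4402 in macrophages, 5012 and 2835 in Kupffer cells, 2640 and 2741 in B cells, and 313 and 301 in endothelial cells. The T cell level of H2-Aa was 117 CPM in Ctrl and 106 in KD, and the granulocyte level 200 and 199. The Kupffer class therefore ranked with macrophages in Ctrl, where the 2 intervals overlapped, and with B cells in KD, where they overlapped too.

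H2-Ab1 (ENSMUSG00000073421), the beta chain of I-A, followed a similar order, with macrophages above Kupffer cells in both libraries. Its levels in Ctrl and KD were 4677 and 5242 CPM in dendritic cells, 4282 and 3505 in macrophages, 3612 and 2058 in Kupffer cells, 1719 and 1716 in B cells, and 241 and 227 in endothelial cells. H2-Eb1 (ENSMUSG00000060586), the beta chain of I-E, stood at 6311 and 7379 CPM in dendritic cells, 5925 and 5064 in macrophages, 5425 and 2640 in Kupffer cells, 2586 and 2588 in B cells, and 360 and 339 in endothelial cells. H2-Eb1 was thus transcribed in the same classes as the I-A chains although its partner H2-Ea had at most 3 UMIs in any of the 5 classes in either library.

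Cd74 (ENSMUSG00000024610), the invariant chain, had its highest level in dendritic cells in both libraries, 7742 CPM in Ctrl and 9385 in KD. Macrophages had 7516 and 6743 CPM, Kupffer cells 6602 and 3728, B cells 4734 and 5284, and endothelial cells 493 and 432, against 182 and 167 in T cells. B cells had relatively more invariant chain, with Cd74 making up 40.5% of the summed UMIs of Cd74 and the 3 classical chains in Ctrl and 42.9% in KD. That share was 32.0% to 34.2% in dendritic, macrophage and Kupffer cells of both libraries. The proportion of the I-A chains also varied: H2-Aa gave 60.6% and 61.5% of the H2-Aa and H2-Ab1 UMIs in B cells, compared with 53.3% and 55.1% in dendritic cells, 52.9% and 55.7% in macrophages, 58.1% and 57.9% in Kupffer cells and 56.4% and 57.0% in endothelial cells. The intervals of Kupffer and B cells overlapped in Ctrl.

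The peptide editor H2-M was split between its beta chains by cell type. H2-DMa (ENSMUSG00000037649), the only alpha chain, had 618 CPM in Ctrl and 713 in KD in dendritic cells, 606 and 532 in macrophages, 593 and 323 in Kupffer cells, 262 and 257 in B cells, and 35.7 and 35.8 in endothelial cells. H2-DMb1 (ENSMUSG00000079547) was likewise higher in myeloid classes, at 342 and 344 CPM in dendritic cells, 445 and 342 in macrophages and 408 and 250 in Kupffer cells, against 107 and 91.9 in B cells and 13.1 and 25.3 in endothelial cells. H2-DMb2 (ENSMUSG00000037548) was instead highest in B cells, with 199 and 179 CPM in B cells, 103 and 139 in dendritic cells, 14.7 and 27.2 in macrophages, and at most 6 UMIs in Kupffer or endothelial cells.

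H2-DMb2 accordingly gave 65.1% of the beta chain UMIs in Ctrl B cells and 66.1% in KD B cells. Dendritic cells stood between, at 23.1% and 28.7%, and macrophages were low, at 3.21% and 7.36%. The 2 genes are close copies that lie next to each other, and how reads of shared sequence were divided between them was not tested. In T cells the same share was 8.74% and 15%, on few UMIs, so the macrophage share was at or below the background share in both libraries although the levels of both beta chains in macrophages were above those of T cells.

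The H2-O chains marked B cells and dendritic cells. H2-Ob (ENSMUSG00000041538) had 293 CPM in Ctrl and 287 in KD in B cells, 68.0 and 66.7 in dendritic cells, 6.95 and 7.91 in macrophages, and 0.568 and 1.73 in T cells. H2-Oa (ENSMUSG00000024334) differed from H2-Ob in that B cells and dendritic cells were alike: 105 and 84.4 CPM in B cells and 104 and 98.3 in dendritic cells, with overlapping intervals in both libraries. Macrophages had 4.05 and 4.0 CPM of H2-Oa, close to the 4.18 and 4.93 of T cells, with overlapping intervals, while granulocytes had 1.63 and 1.24 CPM on 3 and 9 UMIs. H2-Oa in macrophages was thus not separated from the T cell level. Kupffer cells had 1 and 2 UMIs of H2-Oa and 6 and 1 of H2-Ob, and endothelial cells 1 and 12 of H2-Oa and 2 and 13 of H2-Ob.

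The balance of transcripts for the restraining and the exchanging protein was further apart between B cells and the myeloid classes than between the libraries. No protein was measured. H2-O chains made up 41.2% of the summed H2-O and H2-M UMIs in Ctrl B cells and 41.3% in KD B cells, 13.9% and 12.1% in dendritic cells, 1.02% and 1.30% in macrophages, and 1.62% and 0.838% in Kupffer cells. In T cells, on 117 and 73 UMIs of H2-O, the share was 11.5% and 15.7%, so the dendritic share was not apart from that of a background class, although the dendritic levels of H2-Oa and H2-Ob were far above it. Shares of cells with a UMI were taken after each cell was thinned to 1500 UMIs. H2-Ob was seen in 40% of Ctrl and 36.8% of KD B cells, 10.5% of dendritic cells in both, 0.798% and 1.37% of macrophages, and 0.173% and 0.266% of T cells, where median depths before thinning were 7151 and 5820 UMIs in T cells and 2578 and 2594 in B cells.

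**Figure D1:**
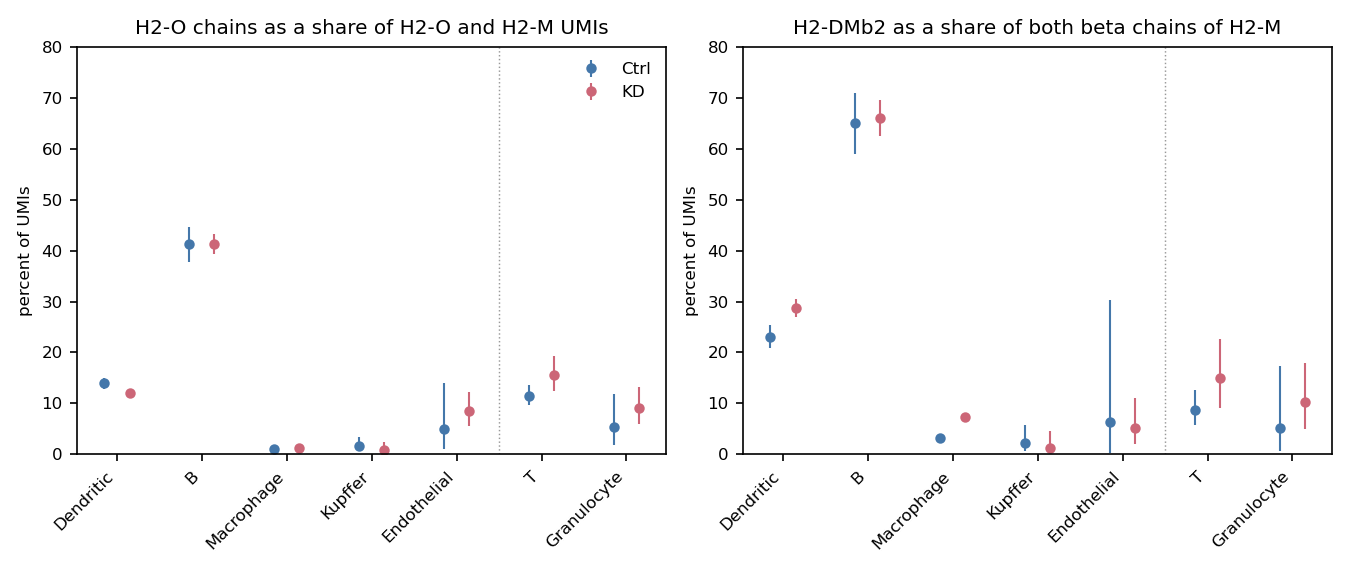
Share (percent) of H2-O chains among H2-O and H2-M UMIs, and of H2-DMb2 among the UMIs of both H2-M beta chains, by cell class for the Ctrl and KD libraries, with exact 95% binomial intervals for counting error. B cells are highest in both panels in both libraries, at 41.2% and 41.3% for H2-O and 65.1% and 66.1% for H2-DMb2.

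Ciita (ENSMUSG00000022504), the coactivator, was highest in dendritic cells among the 5 classes. It stood at 169 CPM in Ctrl and 165 in KD in dendritic cells, 101 in both libraries in B cells, 91.2 and 85.1 in macrophages, 85.4 and 55.2 in Kupffer cells, and 11.3 and 8.13 in endothelial cells. B cells, macrophages and Kupffer cells of Ctrl had overlapping intervals. Ctrl B cells and macrophages were thus not separated by Ciita, whereas their summed classical chains were 6945 CPM in B cells and 15019 in macrophages, and in KD 7045 and 12970. The T cell level of Ciita was 3.12 and 3.56 CPM.

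**Figure D2:**
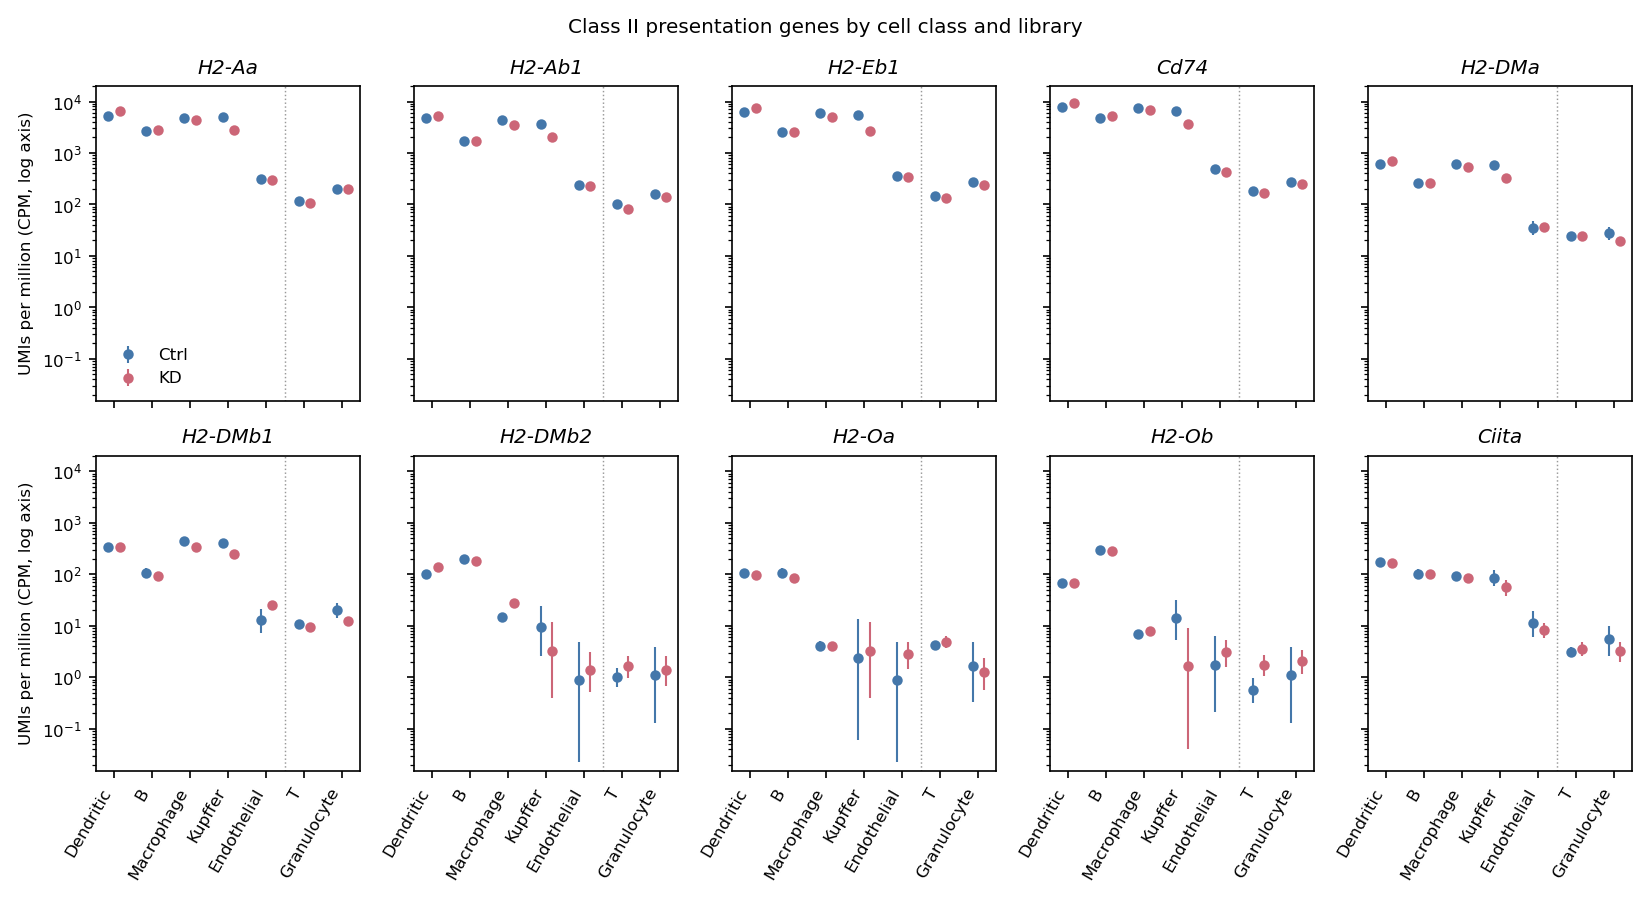
Level of each of the 10 genes (CPM, log axis) in each cell class, with separate points for the Ctrl and KD libraries, 95% Poisson intervals for counting error, and T cells and granulocytes to the right of the dotted line. The classical chains, Cd74 and H2-DMa are high in dendritic cells and macrophages, H2-Ob and H2-DMb2 in B cells, and endothelial levels of H2-Aa (313 and 301 CPM) lie close above those of granulocytes (200 and 199 CPM).

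The libraries were then compared within each class, counting a gene as past the fold when its CPM differed by at least 1.5-fold and it had at least 50 UMIs over both libraries. In dendritic cells none of the 10 genes was past it in either direction, where 5.57% of the 9440 genes with enough UMIs were higher in KD and 6.11% lower. The median log2 ratio of KD over Ctrl was 0.19 for the 10 genes and -0.03 for all genes. All 3 classical chains and Cd74 were slightly higher in KD, by 0.16 (H2-Ab1) to 0.28 (Cd74) on the log2 scale. The libraries differed in their mix of dendritic subsets, as given below, and the part of this mix in the ratios was not tested. The log2 ratio of H2-DMb2 was 0.43 [0.25, 0.62], while those of H2-DMb1, H2-Oa, H2-Ob and Ciita lay between -0.08 and 0.01.

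In B cells none of the 10 genes was past the fold either, against 5.54% of 6964 genes higher and 5.57% lower. Their median log2 ratio was -0.01 and that of all genes -0.03. Cd74 had a log2 ratio of 0.16 [0.11, 0.21], and the interval of H2-Oa, -0.32 [-0.68, 0.05], included 0. B cells meanwhile made up 2.81% of Ctrl cells and 8.71% of KD cells.

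In macrophages 1 of the 10 genes, H2-DMb2, was past the fold and higher in KD, where 7.44% of 13027 genes were, and none was lower, where 8.44% were. H2-DMb2 had 346 UMIs in Ctrl and 632 in KD, a 1.84-fold higher level with a log2 ratio of 0.88 [0.69, 1.08]. The other 6 genes of the classical, Cd74 and H2-M set were lower in KD, with log2 ratios from -0.13 for H2-Aa to -0.38 for H2-DMb1, and the median of the 10 was -0.14 against 0.01 for all genes. H2-DMb1 and H2-DMb2 therefore lay on opposite sides in macrophages.

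In Kupffer cells all 7 genes with enough UMIs were past the fold and lower in KD, where 10.9% of 3355 genes were lower and 9.57% higher. H2-Eb1 had the largest difference, with a log2 ratio of -1.04, followed by H2-DMa at -0.88, H2-Aa at -0.82 [-0.91, -0.73], Cd74 at -0.82, H2-Ab1 at -0.81, H2-DMb1 at -0.71 and Ciita at -0.63 [-1.35, 0.09]. The interval of Ciita, which rests on 36 and 34 UMIs, included 0. H2-DMb2, H2-Oa and H2-Ob had 1 to 6 UMIs per library and gave no ratio.

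**Figure D3:**
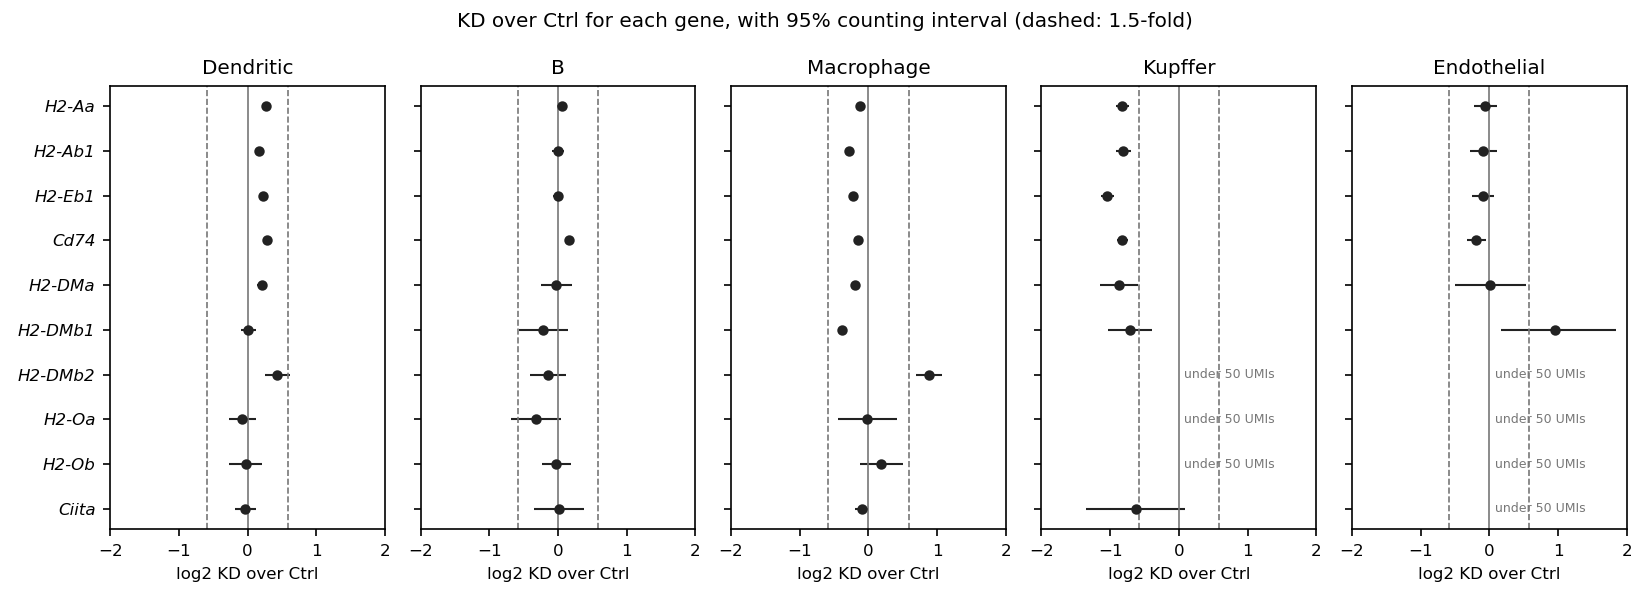
Log2 ratio of KD over Ctrl for each of the 10 genes in 5 cell classes, with 95% intervals for counting error and dashed lines at 1.5-fold; genes with under 50 UMIs are marked in place of a point. All 7 Kupffer points lie below the lower line, H2-DMb2 in macrophages (0.88) and H2-DMb1 in endothelial cells (0.96) lie above the upper line, and dendritic and B cell points lie between the lines.

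The Kupffer difference was also seen cell by cell. The summed classical chains ranged from 1041 to 33646 CPM per cell in Ctrl, with a median of 10769, and from 0 to 30889 in KD, with a median of 3281. The ranges overlapped almost wholly while the medians stood apart. After thinning to 1500 UMIs, the 42 Ctrl cells deep enough had a median of 15.5 UMIs of these chains and the 79 KD cells a median of 4, and 27.8% of the KD cells had 10 or more UMIs compared with 76.2% in Ctrl.

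Of the 8 markers that define Kupffer cells, 7 were higher in KD and only Timd4 was lower, by little. Clec4f, a lectin of Kupffer cells, stood at 1279 CPM in Ctrl and 1467 in KD, Vsig4, a complement receptor, at 973 and 1288, Cd5l at 2333 and 2991 and Timd4 at 441 and 414, a log2 ratio of -0.09 [-0.37, 0.19]. Marco differed most, at 546 CPM in Ctrl and 1274 in KD, a log2 ratio of 1.22 [1.01, 1.44]. Fcna stood at 318 and 549 CPM, a log2 ratio of 0.79, and both were past the 1.5-fold limit. Slc40a1 stood at 1094 and 1589 CPM and Folr2 at 373 and 458. The 8 markers summed to 7357 and 10030 CPM. Markers of other cells did move with the library: 5 of 11 granulocyte markers were detected in Ctrl (128 CPM in sum) and 10 of 11 in KD (2890 CPM), 1 of 4 erythroid markers (2.37 CPM) and 4 of 4 (3628 CPM), and 10 of 11 T cell markers (142 CPM) and 5 of 11 (17.9 CPM). Among lists of cells that can carry class II, cDC1 markers summed to 1096 CPM in Ctrl and 819 in KD, cDC2 markers to 99.7 and 48.7, and pDC markers to 216 and 125. Macrophage markers were higher in KD, at 22468 and 23831 CPM, as were monocyte markers, at 1208 and 1426. Patrolling monocyte markers were lower in KD, at 418 and 333 CPM. Those of mature dendritic cells summed to 83.1 and 84.5 CPM and those of B cells to 221 and 213. The part of any of these markers' cells in the class II ratios was not tested. The log2 ratio of H2-Aa was -0.95 without the 15 Ctrl and 27 KD cells that bore markers of 2 lineages. It was -0.48 when Kupffer cells were picked cell by cell without clusters, and all 7 ratios remained below 0 under every processing alternative that gave them (7 for Ciita and 9 for each of the others). The number of genes past the fold was 4 with class II genes allowed into the clustering, 3 with cells picked singly and 1 at a limit of 2-fold. With 47 and 83 cells from pooled lesions, a difference between the mice cannot be told apart from 1 between the groups.

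In endothelial cells 6 genes had enough UMIs, of which H2-DMb1 was past the fold and higher in KD, where 9.69% of 9057 genes were higher and 9.65% lower. H2-DMb1 had 15 UMIs in Ctrl and 109 in KD, and a log2 ratio of 0.96 [0.17, 1.84]. The other 5 differed little, Cd74 most at -0.19. Levels here were near the background: H2-Aa was 2.67 and 2.84 times its T cell level in Ctrl and KD, Cd74 2.71 and 2.58 times and Ciita 3.62 and 2.29 times. In cells thinned to 1500 UMIs, 17.9% of Ctrl and 12.6% of KD endothelial cells had an H2-Aa UMI, compared with 10.6% and 11.3% of T cells and 22.1% and 18.5% of granulocytes. The share therefore lay at or below a background class.

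Cells with markers of 2 lineages were common among endothelial cells, 40 of 150 in Ctrl and 171 of 646 in KD. Macrophage markers summed to 1586 CPM in Ctrl and 2186 in KD in this class, with 10 of 10 detected, and granulocyte markers to 32.2 and 1455 CPM. Without the 2-lineage cells H2-Aa was 166 CPM in Ctrl and 78.3 in KD, Cd74 285 and 78.7, and H2-DMb1 10.8 and 7.68. In KD these values of H2-Aa and Cd74 are below the T cell levels given above, from which no 2-lineage cells were removed. The number of genes past the fold then became 0 higher and 4 lower, and with cells picked singly 0 higher and 6 lower, with H2-DMb1 at a log2 ratio of -0.67.

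Macrophages fell into sub-clusters that the libraries filled differently. Sub-cluster 0, led by the heat-shock genes Hspa1a and Hspa1b and by Cxcl11, held 34.6% of Ctrl and 21.2% of KD macrophages. Sub-cluster 1, led by Ccl8 and Mmp12, held 10.2% and 20.6%, and sub-cluster 2, led by the monocyte genes Vcan and Chil3, 10.2% and 15.1%. Sub-cluster 3, led by the inflammatory genes Il1a and Cxcl1, held 14% and 10.7%, the cycling sub-cluster 4 13.4% and 4.51%, and sub-cluster 5, led by Ifitm1, 12.5% and 3.78%. Sub-cluster 6, led by Ltc4s and Fn1, came almost wholly from KD, with 7 Ctrl and 360 KD cells.

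Class II differed more between these sub-clusters than between the libraries within most of them. The summed classical chains reached 17013 CPM in Ctrl and 18931 in KD in sub-cluster 0, 19531 and 20888 in sub-cluster 1, 14021 and 14237 in the cycling sub-cluster 4, and 21073 and 22618 in sub-cluster 5. These 4 had log2 ratios from 0.02 to 0.15. The monocytic sub-cluster 2 was low, at 1507 and 951 CPM with a log2 ratio of -0.66, and the inflammatory sub-cluster 3 had 12326 and 8971 CPM with a log2 ratio of -0.46. The KD sub-cluster 6 stood at 4318 CPM.

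The 6 sub-clusters with at least 50 cells in each library held 5133 macrophages and were given the same weight in both libraries. The others were left out, among them sub-cluster 6 with 0.218% of Ctrl and 13.1% of KD macrophages. The log2 ratios then became 0.12 for H2-Aa, -0.03 for H2-Ab1, 0.04 for H2-Eb1, 0.09 for Cd74 and -0.06 for H2-DMb1. The parts of the weighting and of the omission were not separated. At an equal mix the sign turned for H2-Aa, H2-Eb1, Cd74, H2-DMa (0.05) and Ciita (0.04), and the values of H2-Ab1 and H2-DMb1 were close to 0. H2-DMb2 remained higher in KD, with a log2 ratio of 1.06. Per cell, the thinned classical chain UMIs had medians of 21 in Ctrl and 17 in KD, but the lower quartile was 10 in Ctrl and 1.5 in KD, and cells with none made up 7.69% and 18.4%.

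H2-DMb2 was higher in KD by unequal amounts in the 4 large sub-clusters with at least 50 UMIs of it. It stood at 14.2 CPM in Ctrl and 26.1 in KD in sub-cluster 0 (log2 ratio 0.88), 17.9 and 53.9 in sub-cluster 1 (1.59 [1.18, 2.03]) and 16.5 and 48.2 in the cycling sub-cluster 4 (1.55). In sub-cluster 5 the log2 ratio was 0.39 [-0.39, 1.12], an interval that included 0. In the cycling sub-cluster the granulocyte markers also differed, at 111 CPM in Ctrl and 5736 in KD. Granulocytes had 1.09 and 1.37 CPM of H2-DMb2. B cell markers summed to 51.2 CPM in Ctrl and 68.9 in KD over all macrophages, and the part of either in the H2-DMb2 values was not tested. Without the sub-clusters led by granulocyte, T or B genes the log2 ratio over all macrophages was 0.88.

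Ciita followed the classical chains in the low sub-clusters. It was 28.2 CPM in Ctrl and 8.98 in KD in the monocytic sub-cluster 2 (log2 ratio -1.65) and had a log2 ratio of -0.55 in the inflammatory sub-cluster 3, against 0.28 in sub-cluster 0.

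**Figure D4:**
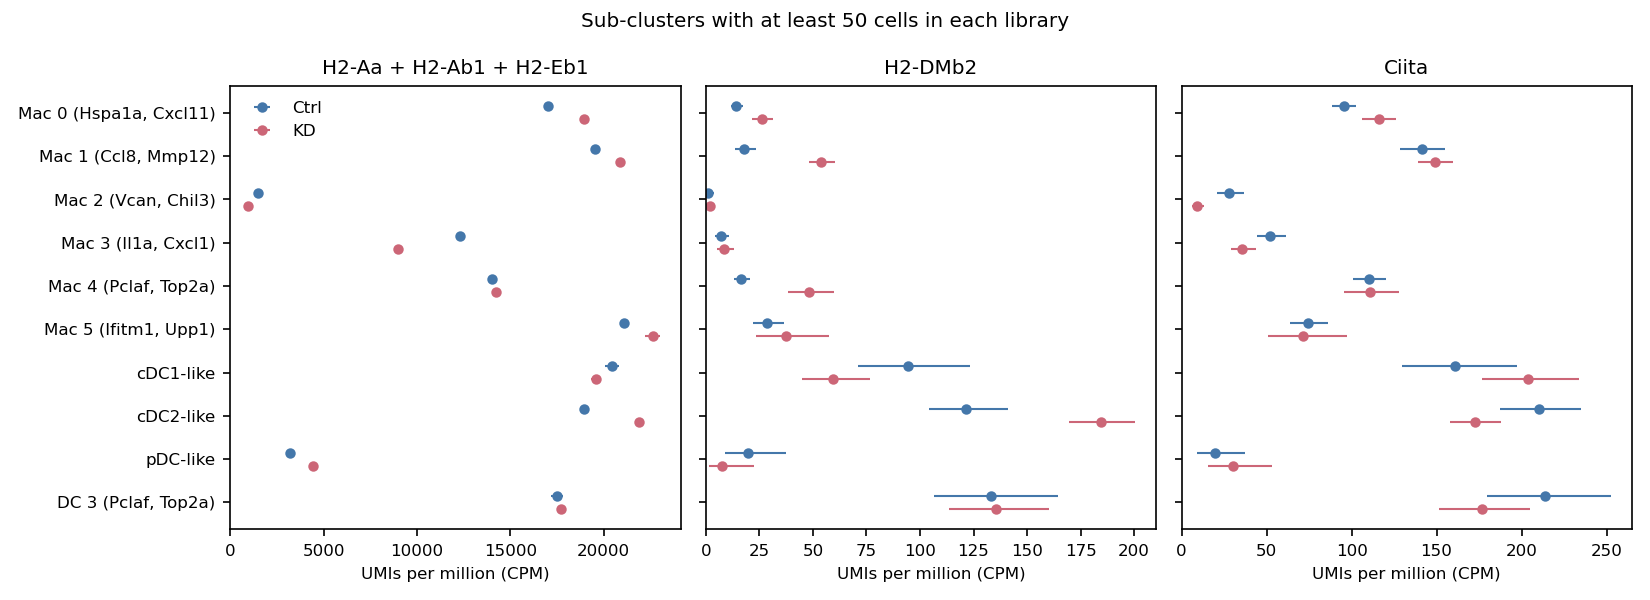
Summed classical chains, H2-DMb2 and Ciita (CPM, linear axis) in each macrophage or dendritic sub-cluster to which both libraries gave 50 cells or more, for Ctrl and KD, with 95% Poisson intervals for counting error. The monocytic macrophages (1507 and 951 CPM) and the pDC-like cells (3175 and 4439 CPM) lie far below the other sub-clusters in the summed classical chains.

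Dendritic subsets differed in the same way. The cDC2-like cells, which favour presentation to CD4+ T cells, numbered 229 in Ctrl and 368 in KD and had 18954 and 21893 CPM of the classical chains (log2 ratio 0.21). The cDC1-like cells, known for cross-presentation on class I, numbered 86 and 107 and had 20457 and 19583 CPM (-0.06). They joined 2 clusters that the libraries filled differently, 1 of 50 Ctrl and 98 KD cells (median depth 9740 UMIs), and 1 of 36 Ctrl and 9 KD cells (median depth 2434 UMIs) that had no cDC1 marker among its leading genes. Without the latter the classical chains had a log2 ratio of -0.03. The pDC-like cells, plasmacytoid cells known for type I interferon, numbered 80 and 66 and had 3175 and 4439 CPM (0.48), and cycling dendritic cells, 50 and 75 in number, 17508 and 17736 CPM. Mature dendritic cells, 28 and 33 in number, were too few.

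H2-DMb2 and Ciita separated the dendritic subsets further. H2-DMb2 was 122 CPM in Ctrl and 184 in KD in cDC2-like cells, with a log2 ratio of 0.60 [0.36, 0.85], but 94.5 and 59.3 in cDC1-like cells, with a log2 ratio of -0.67 [-1.23, -0.11], and of -0.72 [-1.32, -0.11] without their cluster of few UMIs. The intervals of these 2 ratios did not overlap, and the difference between the subsets has no replicate check. The pDC-like cells had 19.7 and 30.5 CPM of Ciita. They had 39.4 and 45.8 CPM of H2-Oa and 4.38 and 2.54 of H2-Ob, the latter on very few UMIs. Over all dendritic cells H2-Oa was at 104 and 98.3 CPM and H2-Ob at 68.0 and 66.7.

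Genes that act on or beside class II were read from 5 lists, chosen with earlier results of these data known. Of the class II transcription list, which holds the X and Y box proteins and factors that drive Ciita, 0 were higher and 3 of 11 lower in dendritic cells (Spib, Irf1 and Irf8), 0 and 1 of 9 in B cells (Irf1), 1 (Irf4) and 2 of 10 in macrophages (Irf1 and Irf8), 0 and 2 of 3 in Kupffer cells (Irf1 and Irf8), and 0 and 1 of 8 in endothelial cells (Irf1). The shares of all genes past the fold, for this list and those that follow, are the ones given above for each class. In the same order, 6.11%, 5.57%, 8.44%, 10.9% and 9.65% were lower in KD. The shares higher in KD were 5.57%, 5.54%, 7.44%, 9.57% and 9.69%. For a short list, 1 gene is near such a share. Spib and Irf8 are also genes of plasmacytoid cells, and in the dendritic class the pDC markers summed to 1499 CPM in Ctrl and 839 in KD and pDC-like cells were 16.9% and 10.2% of the cells, whose part in these 2 genes was not tested. The median log2 ratios of the list were -0.27, -0.16, -0.09, -0.87 and -0.39 in that order. None of the X and Y box proteins with enough UMIs, among Rfx5, Rfxank, Rfxap, Nfya, Nfyb, Nfyc and Creb1, was past the fold in any of the 5 classes. In macrophages Irf1, an interferon-induced factor, was 352 CPM in Ctrl and 160 in KD, and Irf8, a factor of myeloid and B cells, 489 and 254. The log2 ratio of Irf1 was -0.95 in B cells and -0.93 in dendritic cells, while those of Ciita there were 0.01 [-0.35, 0.38] and -0.03 [-0.18, 0.12].

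The interferon gamma signalling list shares Irf1 with the first. Of its 7 genes read here, 2 were higher (Ifngr1 and Ifng) and 2 lower (Irf1 and Socs1) in dendritic cells, 0 and 2 in B cells (Irf1 and Socs1), 1 (Ifngr1) and 2 (Irf1 and Socs1) in macrophages, and 0 and 4 in endothelial cells (Jak2, Irf1, Socs1 and Ifng), with 0 and 1 of 5 in Kupffer cells (Irf1). Its median log2 ratios were 0.06, -0.07, -0.20, -0.67 and -0.12 in the order just given. Socs1, a feedback inhibitor of the pathway, was 101 CPM in Ctrl and 34.1 in KD in macrophages, with a log2 ratio of -1.57, while Ifngr1, the ligand-binding receptor chain, was 156 and 297 there.

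Of the genes for processing and turnover, only Cd83 in Kupffer cells was past the fold and lower in KD. No gene of the 6 with enough UMIs was past the fold in dendritic cells. In B cells 2 of 6 were higher (Ctsl and Marchf1), where 5.54% of all genes were. In macrophages and in endothelial cells 1 of 7 was higher (Ctsl in both). In Kupffer cells 1 of 6 was higher (Marchf1) and 1 lower (Cd83). The median log2 ratios were 0.18 in dendritic and in B cells, -0.08 in macrophages, 0.12 in endothelial cells and 0.26 in Kupffer cells. Marchf1 encodes a ligase that sends class II for degradation and Cd83 a protein that opposes it. In Kupffer cells Marchf1 was 140 CPM in Ctrl and 224 in KD and Cd83 358 and 140.

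The class I list, for comparison, had a median below 0 in all 5 classes. Its 7 genes had median log2 ratios of -0.36 in dendritic cells, -0.34 in B cells, -0.64 in macrophages, -0.29 in Kupffer cells and -0.29 in endothelial cells. In macrophages 4 of the 7 were past the fold and lower, where 8.44% of all genes were, namely the peptide transporter genes Tap1 and Tap2, Tapbp and Nlrc5, the class I counterpart of Ciita, and in B, Kupffer and endothelial cells Tap1 alone, while none was in dendritic cells. Of the other class II locus genes only H2-Eb2, a beta chain of little known function, had enough UMIs. It was highest in B cells, at 68.7 and 65.9 CPM, followed by dendritic cells at 14.6 and 21.4 and macrophages at 3.75 and 4.39, and was past the fold in none.

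**Figure D5:**
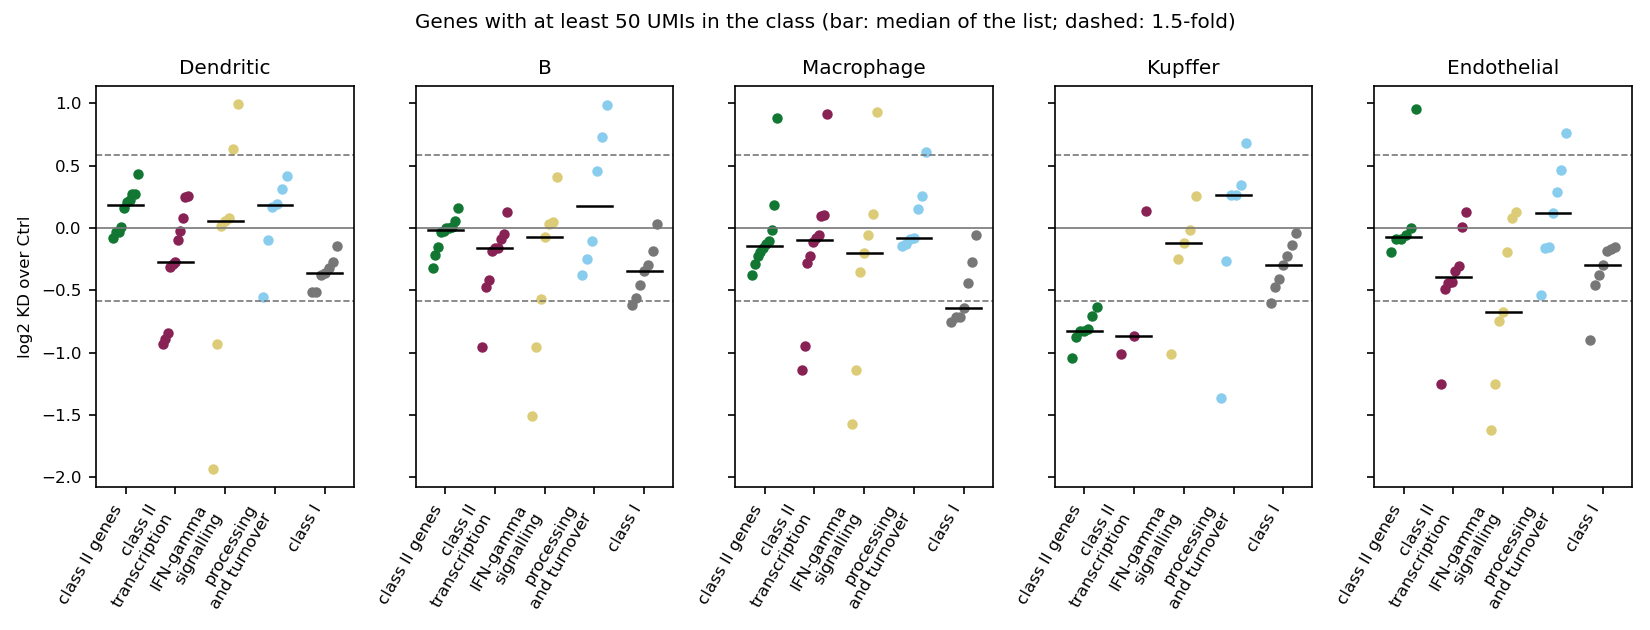
Log2 ratios of KD over Ctrl for the 10 class II genes and for the genes of 4 of the lists, by cell class; each point is 1 gene with at least 50 UMIs and each bar the median. The class II genes lie near 0 in dendritic and B cells and near -0.82 in Kupffer cells, and the class I list has a median below 0 in every class shown.

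The genes whose profile over 16 class-by-library levels was most like that of the summed classical chains were Ly86 (Pearson r = 0.977), Rnase6 (0.973), Fgd2 (0.972), Pld4 (0.966) and Cd180 (0.963), as a description over profiles that share libraries. Only classes with at least 50 cells in each library entered, so Kupffer cells, with 47 in Ctrl, were left out. T, NK, granulocyte and tumour-like or fibroblast-like cells were included. By rank correlation Rnase6, Cd180 and Pld4 stayed among the first 5, the latter a tie, joined by Tbc1d9, Amz1 and Naaa. Ly86 and Cd180 encode the MD-1 and RP105 proteins, which pair on the surface of B cells and myeloid cells. Most like H2-Oa and H2-Ob in sum were Spib (0.966), H2-Eb2 (0.961), Ero1b (0.951), Ly6d (0.947) and Hepacam2 (0.933), of which Ero1b stayed among the first 5 by rank. Spib encodes a transcription factor of B cells and plasmacytoid dendritic cells.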

How the data were processed

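The deposited files hold UMI counts per gene and cell, which the authors made from 10x Genomics 3′ v3.1 libraries; the submitters' processing notes name Cell Ranger 7.1.0, GRCm39, Seurat 5.1.0 and R 4.4.1. The 10 genes and the lists were chosen with earlier results of these data known. The study's limits were applied (200 genes or more, no more than 6000 genes or 30000 UMIs, and mitochondrial UMIs up to 10%), leaving 9814 of 10416 Ctrl and 10185 of 10943 KD barcodes; total counts were 67207234 and 64444715. Doublets were not called; cells with at least 2 UMIs of each of 2 lineages' markers were left out as an alternative. Cells were clustered in Seurat 5.3.0 under R 4.3.3 (2000 variable genes without class II genes, 20 components, resolution 0.5), and named where at least 3 fixed markers led and the leading 10 genes did not go against the name, so names may differ from the study's. Clusters that failed these rules held 13.8% of Ctrl and 5.80% of KD cells.

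UMIs were summed per class and library. Levels have Poisson, ratios conditional binomial and shares Clopper-Pearson 95% intervals (Python 3.11.15, SciPy 1.17.1). Ratios were computed for all genes with at least 50 UMIs. The method was also run on counts simulated from the macrophage sums with counting error alone. That setting matches the interval by construction and cannot check variation between cells, mice or libraries. A scaling by edgeR 4.0.16 TMM factors was an alternative. Shares used cells thinned to 1500 UMIs, and shallower cells were left out, 24 and 12 dendritic, 31 and 74 B, 73 and 55 macrophage, 5 and 4 Kupffer, 27 and 81 endothelial, 33 and 14 T cells and 125 and 184 granulocytes in Ctrl and KD. Genes named are the 10, the lists, class markers, and the 5 of at least 200 UMIs most like each of 2 profiles. Of the lists, 1 gene is not reported here and enters none of their counts or medians.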

Additional observations from a re-analysis of the deposited data

Results flagged for a closer look

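H2-DMb1 had ratios of opposite sign in 2 classes past the 1.5-fold limit: its log2 ratio of KD over Ctrl was 0.96 in endothelial cells and -0.71 in Kupffer cells. The difference between the classes was not tested, since each group had 1 library. The endothelial ratio rests on 15 UMIs in Ctrl and 109 in KD.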

How the results depend on the processing

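Leaving out a replicate was not possible. No paired analysis was possible because each group had 1 library. Depth limited H2-DMb2, H2-Oa and H2-Ob in Kupffer and endothelial cells and Ciita in endothelial cells, which had under 50 UMIs.

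At a limit of 2-fold, 0 macrophage genes were higher in KD (1 at 1.5-fold), 1 Kupffer gene was lower (7) and 0 endothelial genes were higher (1). In Kupffer cells 4 genes were lower with class II genes allowed among the variable genes and 3 with classes from single cells. In endothelial cells 0 genes were higher when 2-lineage cells were left out, with classes from single cells, with the mean over cells, or when the interval had to lie wholly past 1.5-fold. There 4 were lower when 2-lineage cells were left out, 6 with classes from single cells, and 1 each with the mean over cells and with lower upper limits on UMIs and genes, against 0 as reported. The ratio of H2-DMb1 in endothelial cells reversed to -0.67 with classes from single cells. The cause was not tested. The other 105 counts stayed within 1.5 times. Of the log2 ratios in the 5 classes, 333 moved by no more than the interval, 88 by more. All 7 Kupffer ratios kept their sign in all alternatives, as did 6 of 10 in dendritic cells, 5 of 10 in B cells, 3 of 10 in macrophages (H2-Ab1, H2-DMb1 and H2-DMb2) and 3 of 6 in endothelial cells. CPM levels lay outside the counting interval in 326 of the cases and within it in 554, and shares of cells, unthinned or thinned to 1000 UMIs, in 145 and 55. The alternatives on macrophage sub-clusters, on the unnamed cluster led by Cadm1 and Slc8a1 and on cDC1-like cells were chosen after seeing the data.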

Other observations

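A cluster led by Cadm1 and Slc8a1, left unnamed since its 10 leading genes held no macrophage marker and 1 of another list, held 912 Ctrl cells (9.29%) and 361 KD cells (3.54%). Its H2-Aa levels were 2716 CPM in Ctrl and 3243 in KD, its Cd74 levels 3651 and 4340, and its Ciita levels 289 and 290, the last being above those of each of the 5 named classes.

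In T cells H2-Oa had 103 UMIs in Ctrl and 54 in KD (4.18 and 4.93 CPM), while H2-Ob had 14 and 19 (0.568 and 1.73 CPM). The ratio of the 2 chains in T cells thus differed from that in B cells, where H2-Ob was the higher count in both libraries (293 and 287 CPM against 105 and 84.4).

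Across single cells thinned to 1500 UMIs, pairs of the 3 classical chains had correlations of 0.83 to 0.86 in 5829 macrophages, 0.72 to 0.79 in 1086 dendritic cells and 0.31 to 0.36 in 1058 B cells, given as a description of cells that share 2 libraries.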
